A study of Mus musculus with 16 samples.

Results

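The genes described here are the TNF superfamily ligands and receptors of the mouse, chosen by symbol from the 24984 genes counted in kidney and liver RNA-seq libraries of old mice. The symbols taken were *Tnf*, *Lta*, *Ltb*, *Ltbr*, *Fas*, *Fasl*, *Cd27*, *Cd40*, *Cd40lg*, *Cd70*, *Eda2r*, *Edar*, *Ngfr* and every numbered *Tnfsf* or *Tnfrsf* symbol. In all, 44 symbols matched and all 44 had reads in at least 1 library, so that 0 were dropped. They comprise 17 ligands and 27 receptors, and no measured value entered the choice.

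In the study, wild-type C57BL/6 mice aged 24 months received an AAV8 vector by tail vein, carrying either a short hairpin RNA against *Fos* (shFos group) or a non-targeting hairpin (NT group). *Fos* encodes a subunit of AP-1, a transcription factor of immediate early and inflammatory responses. Per the study's methods the mice were female and the kidney and liver were taken 3 months after the injection, whereas the labels give the age as 24 months for all libraries. There were 4 libraries in each of the 4 groups (NT kidney, shFos kidney, NT liver and shFos liver), 16 in all, and every mouse, controls included, carried the AAV8 vector, for which the transduced cell types were not analysed here. Nothing in the labels says that the 4 libraries of a group came from separate mice, so p-values measure the spread between these libraries.

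Members of this superfamily are trimeric type II membrane proteins or their soluble forms, which cluster cysteine-rich receptors on the responding cell. Receptors with a cytoplasmic death domain, such as those of TNF, FasL and TRAIL, can assemble caspase-activating complexes, and the others recruit TRAF adaptors that lead to NF-κB and MAP kinases. A few receptors lack signalling domains and act as decoys. In kidney and liver the best known members are the TNF, lymphotoxin, Fas and TRAIL receptors of parenchymal cells, and the BAFF, CD40 and CD27 systems of lymphocytes.

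Reads assigned to genes numbered 14194543 to 15534665 in the kidney libraries and 16652150 to 18300277 in those of liver. Values are given below as CPM, the read count relative to the library's total after 1 TMM scaling over the 16 libraries, on which 3 reads correspond to 0.139 to 0.163 CPM in a kidney library and 0.220 to 0.275 CPM in a liver library. The 44 members together took 0.0567 to 0.0740% of the reads in kidney and 0.0286 to 0.0480% in liver. *Fos*, the targeted gene, was at 3.81 ± 0.717 CPM (SD, n = 4) in NT kidney and 2.31 ± 0.665 CPM in shFos kidney, without overlap (exact permutation p = 0.0286, two-sided, the smallest that 70 assignments allow). The libraries were at 4.75, 3.65, 3.01 and 3.83 CPM in NT kidney and 1.87, 2.99, 2.75 and 1.63 CPM in shFos kidney. The gap was narrow, with 65 reads in NT replicate 3 and 62 in shFos replicate 2. In liver *Fos* was at 3.52 ± 1.53 CPM in NT and 2.54 ± 0.864 CPM in shFos, with overlap (exact permutation p = 0.343). With edgeR over all genes, *Fos* had a log2 fold change of −0.73 in kidney (adjusted p = 0.0947) and −0.47 in liver (adjusted p = 0.775). Neither adjusted p was under 0.05, and 17.5% of the kidney genes tested had groups without overlap. Tissue identity followed the labels: the summed proximal tubule markers were at 2542 to 7039 CPM in kidney libraries and at most 3.06 CPM in liver, and the summed hepatocyte markers were at 272 to 1032 CPM in kidney and 64801 to 264979 CPM in liver. Several libraries stood apart. Replicate 3 of the NT group was rich in B cell markers in both tissues (summed level 127 CPM in kidney and 96.9 CPM in liver, against at most 41.8 and 17.5 CPM in the other NT libraries). Replicate 4 of the NT group had few T cell markers in kidney (3.97 CPM against 16.6 to 33.7) and, in liver, a low hepatocyte sum (64801 CPM against 170503 to 264979) with a high neutrophil sum (149.5 CPM against 27.3 to 47.5). Replicate 1 of the shFos kidneys had a podocyte sum of 259 CPM against 458 to 519 CPM in the other shFos kidneys. In such bulk tissue, fewer cells of a type and less RNA per cell cannot be told apart.

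Because the study targeted an AP-1 subunit, DNA before RefSeq start sites is shown first. The members shown are those with an AP-1 site in the 250 bases before such a start. The RefSeq table of promoter windows (GRCm38.p6, coordinates of the same build as mm10) held 38 windows for 34 of the 44 members. The AP-1 letters TGANTCA, searched on both strands, were found in 6 of the 38 windows (15.8%), against 6.75% of all 32851 windows in the table. The cyclic AMP response element TGACGTCA, which AP-1 and ATF dimers also bind, was found in 0 of 38 windows, against 1.55% of all windows, which says only that these letters were not there. A match is a description of sequence and not of binding. The 6 stretches run 5′ to 3′ on the gene's strand, with the AP-1 letters in capitals.
Fas (chr19:34290421-34290481, plus strand): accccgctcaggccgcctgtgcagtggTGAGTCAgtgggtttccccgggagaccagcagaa
Tnfsf13 (chr11:69685654-69685714, minus strand): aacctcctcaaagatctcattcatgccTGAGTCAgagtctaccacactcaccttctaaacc
Tnfsf13b (chr8:10006479-10006539, plus strand): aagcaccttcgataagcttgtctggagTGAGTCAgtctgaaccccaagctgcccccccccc
Tnfsf14 (chr17:57194308-57194368, minus strand): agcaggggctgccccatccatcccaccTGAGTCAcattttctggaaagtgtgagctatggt
Tnfrsf8 (chr4:145315263-145315323, minus strand): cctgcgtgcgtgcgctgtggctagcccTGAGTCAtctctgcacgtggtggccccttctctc
Tnfrsf9 (chr4:150927957-150927998, plus strand): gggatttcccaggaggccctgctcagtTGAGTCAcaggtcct

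The motif began at position −211 relative to the RefSeq start in *Fas*, −160 in *Tnfsf14*, −133 in *Tnfsf13*, −132 in *Tnfrsf8*, −127 in *Tnfsf13b* and −15 in *Tnfrsf9*. RefSeq and GENCODE starts differ for some members. By the GENCODE gene spans, the stretches of *Tnfsf13*, *Tnfsf13b* and *Tnfrsf9* lie inside the gene and not before it. The κB consensus was found in 4 member windows (10.5%, against 7.25% of all windows), of *Ltb*, *Tnfrsf8*, *Tnfrsf9* and *Tnfrsf25*. The members whose liver levels turn out to separate the groups, *Ltbr* and *Tnfrsf1a*, are neighbours on chromosome 6, 35476 bases apart, and held neither motif there. Their last 120 bases before the RefSeq start are given beside those of *Tnf* for comparison. GC boxes (GGGCGG on either strand, in 17 of 38 member windows and 32.7% of all windows) are in capitals. The *Tnfrsf1a* stretch likewise lies inside the GENCODE gene span.
Ltbr (chr6:125313886-125314005, minus strand): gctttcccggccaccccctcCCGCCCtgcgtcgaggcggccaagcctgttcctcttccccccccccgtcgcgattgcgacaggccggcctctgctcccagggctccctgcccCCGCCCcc
Tnfrsf1a (chr6:125349603-125349722, plus strand): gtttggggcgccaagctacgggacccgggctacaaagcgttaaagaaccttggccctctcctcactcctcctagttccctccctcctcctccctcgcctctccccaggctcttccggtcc
Tnf (chr17:35202008-35202127, minus strand): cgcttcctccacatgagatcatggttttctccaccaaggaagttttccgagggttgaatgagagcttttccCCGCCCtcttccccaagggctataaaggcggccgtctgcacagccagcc

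The members were first compared between NT kidney and NT liver, which gives where each is expressed without the knockdown. Kidney carried more TRAIL and TL1A, more of the death receptor of each, and more death receptor 6. Liver carried more of both TNF receptors, the lymphotoxin receptor, Fas and the decoy osteoprotegerin. The decoy TRAIL receptors *Tnfrsf22* and *Tnfrsf23* did not pass the test (edgeR adjusted p = 0.570 and 0.702). Of 33 members that passed the filter on low counts, 17 (51.5%) differed at an adjusted p under 0.05 (edgeR quasi-likelihood, Benjamini-Hochberg over all genes), against a background of 60.1% of the 14875 genes tested. In the direction of kidney there were 9 of 33 (27.3%, background 32.3%), and in the direction of liver 8 of 33 (24.2%, background 27.7%). Of the 9, *Tnfsf15*, *Tnfsf9* and *Edar* did not pass the filter in the liver libraries alone and entered this fit through their kidney values. Their calls are not counted as support. The share of members that differed was thus no higher than that of genes in general, and what follows describes which they were.

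**Figure D1:**
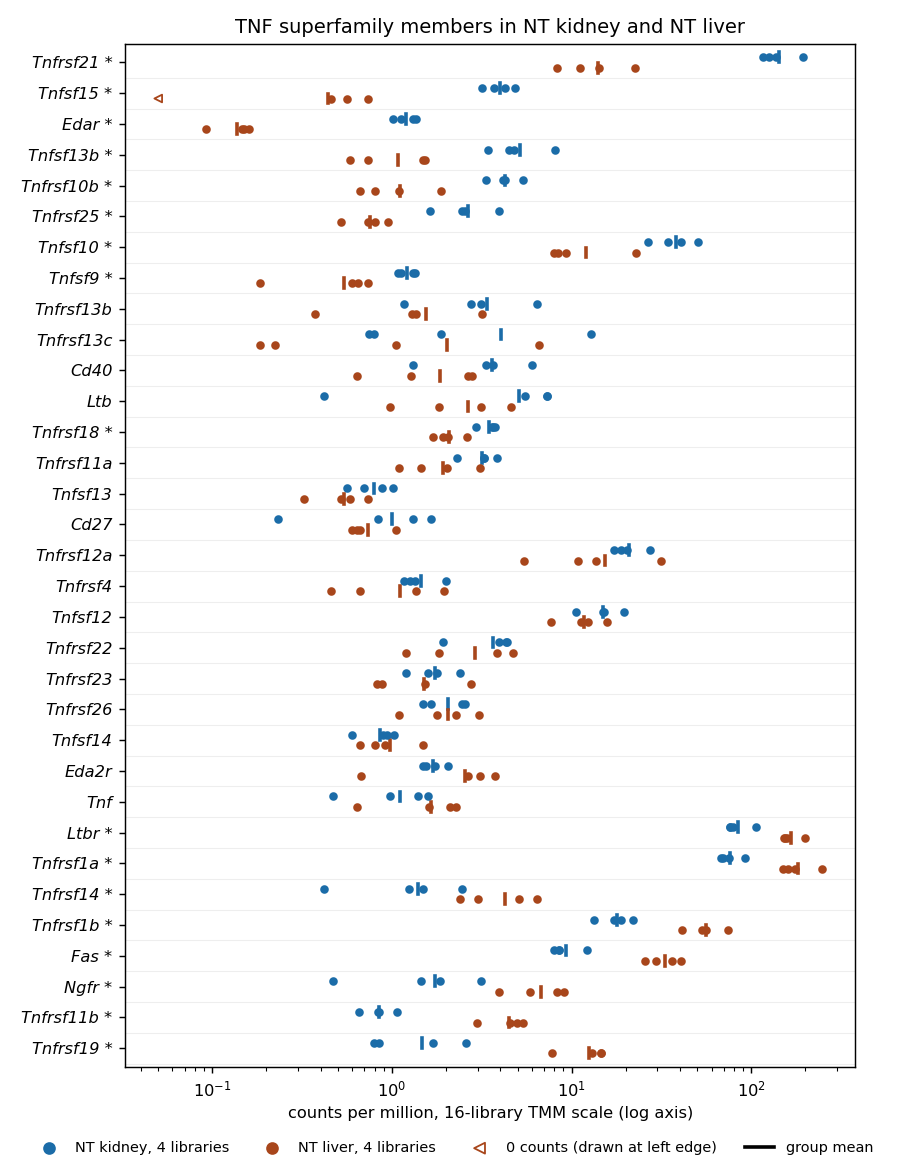
Level of each of the 33 tested members in the 4 NT kidney (blue) and 4 NT liver (brown) libraries, in CPM on a log axis; short bars are group means, an asterisk marks an adjusted p under 0.05, and members are ordered by fold change from kidney-high (top) to liver-high (bottom). *Tnfrsf21* heads the kidney side at 116 to 193 CPM, and *Tnfrsf19*, *Tnfrsf11b* and *Ngfr* close the liver side.

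Among the ligands, *Tnfsf10* (TRAIL, which triggers apoptosis through its death receptor) was at 34.4, 50.4, 40.5 and 26.5 CPM in the 4 NT kidneys and at 7.98, 22.7, 9.24 and 8.36 CPM in the 4 NT livers. All kidney values lay above the liver ones (log2 fold change 1.65, SE 0.37, adjusted p = 0.00388). *Tnfsf15* (TL1A, the ligand of the death receptor DR3) was at 4.84, 3.70, 4.26 and 3.17 CPM in NT kidney and at 0.458, 0.563, 0.733 and 0 CPM in NT liver. The liver values stood near the level of 3 reads, and the ratio of the summed counts, scaled for depth, was 9.15 (exact 95% interval 5.94 to 14.8, counting error only; adjusted p = 0.00126). *Tnfsf13b* (BAFF, the survival factor of B cells) was at 5.18 ± 2.01 CPM in NT kidney and 1.09 ± 0.495 CPM in NT liver, without overlap (log2 fold change 2.24, adjusted p = 0.00122). *Tnfsf9* (the ligand of 4-1BB, a T cell costimulator) was at 1.21 ± 0.136 and 0.539 ± 0.244 CPM (log2 fold change 1.13, adjusted p = 0.0237). Its call was lost without NT kidney replicate 2 (adjusted p = 0.0622) or 3 (0.0630), and without NT replicates 3 and 4 of both tissues (0.0676).

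The cytokines that give the family its name were scarce in both tissues. *Tnf* was at 1.40, 1.59, 0.972 and 0.467 CPM in NT kidney and at 0.642, 1.61, 2.27 and 2.09 CPM in NT liver, which overlapped (log2 fold change −0.59, SE 0.47, adjusted p = 0.312), and with library-size scaling the direction turned (0.42). *Ltb* (lymphotoxin β, which forms the membrane ligand of the lymphotoxin β receptor) was at 7.26, 5.48, 7.27 and 0.420 CPM in NT kidney and 1.83, 3.14, 4.62 and 0.970 CPM in NT liver. The low kidney value was that of replicate 4, and the difference did not pass the test with it (log2 fold change 0.95, adjusted p = 0.302). It passed without that library (1.33, 0.0348), without NT replicates 3 and 4 of both tissues (1.31, 0.0206) and with library-size scaling (1.96, 0.0383). *Tnfsf12* (TWEAK, a weak inducer of death and a growth signal for epithelium) was at 15.0 ± 3.69 and 11.8 ± 3.29 CPM (adjusted p = 0.243).

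Receptors with a death domain were divided between the tissues. All 7 of them were called, against 60.1% of all genes tested. *Edar* is among the 7 although it passed the filter through its kidney values, so that its call is no support. Of the 7, 4 were higher in kidney (background 32.3%) and 3 higher in liver (background 27.7%). *Tnfrsf21* (death receptor 6) was at 126, 116, 138 and 193 CPM in NT kidney and at 8.25, 11.1, 22.5 and 14.1 CPM in NT liver. It was the most unequal member (log2 fold change 3.34, SE 0.32, adjusted p = 2.06e-05) and kept that direction at an adjusted p under 0.05 in all 17 alternatives run. *Tnfrsf10b* (the TRAIL receptor of the mouse) was at 4.26 ± 0.854 CPM in NT kidney and 1.11 ± 0.538 CPM in NT liver (log2 fold change 1.94, adjusted p = 0.00111). *Tnfrsf25* (DR3, the receptor of TL1A) was at 2.65 ± 0.954 and 0.754 ± 0.179 CPM (log2 fold change 1.80, adjusted p = 0.00173). *Edar* (the ectodysplasin receptor of skin appendages) was counted at 28, 24, 22 and 29 reads in NT kidney and at 1, 2, 2 and 2 reads in NT liver, a ratio of 8.63 in CPM (exact 95% interval 4.04 to 22, counting error only).

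The liver side held *Fas*, *Tnfrsf1a* and *Ngfr*. *Fas*, the receptor of FasL and a mediator of hepatocyte death, was at 8.47, 8.53, 8.01 and 12.2 CPM in NT kidney and 29.6, 40.6, 25.7 and 36.1 CPM in NT liver (log2 fold change −1.83, SE 0.19, adjusted p = 3.46e-05). *Tnfrsf1a* (TNFR1, the main receptor of soluble TNF) was at 67.5, 75.2, 69.3 and 92.0 CPM in NT kidney and 159, 174, 149 and 248 CPM in NT liver (log2 fold change −1.27, SE 0.18, adjusted p = 0.000284). The groups of both genes were apart, with replicate 4 the highest NT kidney in each. *Ngfr* (the p75 neurotrophin receptor, found on hepatic stellate cells) was at 1.73 ± 1.11 CPM in NT kidney and 6.78 ± 2.32 CPM in NT liver (log2 fold change −1.97, adjusted p = 0.00889).

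Of the TRAF-binding receptors, 4 of 13 tested were higher in liver, against 27.7% of all genes. In kidney 1 was higher, *Tnfrsf18* (GITR, of regulatory T cells), against 32.3% of all genes. *Tnfrsf18* was at 3.48 ± 0.364 CPM in NT kidney and 2.07 ± 0.392 CPM in NT liver (log2 fold change 0.74, SE 0.22, adjusted p = 0.0165), a call lost without NT kidney replicate 1 (0.0510). *Tnfrsf19* (TROY, a receptor of stem and progenitor cells) was at 0.791, 0.843, 2.59 and 1.68 CPM in NT kidney and 14.5, 14.5, 13.1 and 7.76 CPM in NT liver (log2 fold change −3.07, SE 0.41, adjusted p = 0.000170). *Tnfrsf1b* (TNFR2, on leukocytes and endothelium) was at 17.8 ± 3.58 and 56.0 ± 13.5 CPM (log2 fold change −1.65, adjusted p = 0.000153). *Ltbr*, the lymphotoxin β receptor of stroma and hepatocytes, was at 76.2, 79.3, 76.2 and 106 CPM in NT kidney and 155, 152, 158 and 199.8 CPM in NT liver (log2 fold change −0.98, SE 0.15, adjusted p = 0.000372). These groups did not overlap, but the direction of *Ltbr* turned with library-size scaling (0.06), under which *Tnfrsf1a* (−0.23, adjusted p = 0.280), *Ngfr* (−0.94, 0.118) and *Tnfrsf14* (−0.56, 0.334) also lost their calls. That scaling moved the median of all genes from 0.04 to 1.08, and called 26 of 33 members (78.8%) against 82.7% of genes. *Tnfrsf14* (HVEM, the receptor of LIGHT) was at 1.40 ± 0.830 and 4.23 ± 1.86 CPM (log2 fold change −1.59, adjusted p = 0.0246), and was no longer called without NT kidney replicate 1 (0.0545) or 3 (0.0628), without NT liver replicate 2 (0.0670) or 3 (0.0511), or without NT replicates 3 and 4 of both tissues (0.0550).

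*Tnfrsf11b* (osteoprotegerin, a soluble decoy for RANKL and TRAIL) was at 0.850 ± 0.168 CPM in NT kidney and 4.46 ± 1.05 CPM in NT liver (log2 fold change −2.38, adjusted p = 6.96e-05). Its signalling partner *Tnfrsf11a* (RANK) was at 3.16 ± 0.650 and 1.91 ± 0.866 CPM (adjusted p = 0.104) and was called without NT liver replicate 3 (log2 fold change 1.01, adjusted p = 0.0232). *Tnfrsf13b* (TACI, a BAFF and APRIL receptor of B cells) was at 3.36 ± 2.19 and 1.54 ± 1.16 CPM, with a log2 fold change of 1.11 (adjusted p = 0.166). With the replicate number as a block it was called (1.19, adjusted p = 0.00546), the only member whose call the block changed. *Cd40* (log2 fold change 0.95, adjusted p = 0.166), *Tnfrsf13c* (0.97, 0.517), *Tnfrsf12a* (0.44, 0.423) and *Eda2r* (−0.57, 0.283) did not pass. Of these, *Tnfrsf12a* was called without NT liver replicate 4 (1.04, adjusted p = 0.0139), as was *Eda2r* (−0.93, 0.00866).

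Of a list of 62 adaptors, caspases, ubiquitin ligases, kinases, NF-κB proteins and sheddases of the pathway, 34 (54.8%) differed between NT kidney and NT liver, against the 60.1% of all genes. Of these, 10 (16.1%, background 32.3%) were higher in kidney and 24 (38.7%, background 27.7%) in liver.

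The 4 shFos libraries of each tissue are other samples in which the same contrast can be read. There, 19 of 32 members tested (59.4%) were called, against 69.6% of genes in that fit, so that a call there was more common than not for any gene. Among the 19 were 14 of the 17 above, in the same direction. How many of all genes called in the NT libraries were called again was not counted, so that 14 of 17 has no background. *Tnfrsf25* (log2 fold change 0.40, adjusted p = 0.530) and *Tnfrsf18* (−0.09, adjusted p = 0.857) were not called, and *Tnfsf9* did not pass the filter. The members called there alone were *Tnfrsf12a* (1.04, adjusted p = 0.00175), *Tnfrsf11a* (0.96, 0.00852), *Tnfsf13* (1.06, 0.0205), *Cd40* (0.93, 0.0251) and *Tnfrsf13b* (0.94, 0.0378), all higher in kidney. Of all 14628 genes tested in that fit, 5380 were called higher in kidney and 4801 lower.

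Per kilobase of exon, the scale on which members may be ranked, receptors took the first 4 places in NT kidney and the first 5 in NT liver, ahead of the ligand *Tnfsf12*. In NT kidney the order of mean levels was *Ltbr* (35.9 CPM per kilobase), *Tnfrsf21* (34.8), *Tnfrsf1a* (29.3), *Tnfrsf12a* (10.8), *Tnfsf12* (9.92) and *Tnfsf10* (7.21). In NT liver it was *Ltbr* (70.6) and *Tnfrsf1a* (70.6), then *Fas* (16), *Tnfrsf1b* (14.7), *Tnfrsf12a* (7.94) and *Tnfsf12* (7.76). Neighbours such as *Ltbr* and *Tnfrsf21* in kidney, or *Ltbr* and *Tnfrsf1a* in liver, were closer than their spread between libraries. *Tnf* itself was at 0.675 CPM per kilobase in NT kidney and 1.01 in NT liver. Levels of *Tnfsf12* and *Tnfsf13* are uncertain, because the fusion locus *Tnfsfm13* spans both on the same strand and was counted at 0 reads in every library, while reads shared between genes were set aside as ambiguous. *Tnfrsf22*, *Tnfrsf23* and *Tnfrsf26* are neighbouring relatives on chromosome 7, between which reads could not be apportioned with certainty. *Cd27* and *Tnfrsf9* overlap *Vamp1* and *Camta1* on the opposite strand, and the counting did not use strand.

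The knockdown was compared next in kidney. Here no member passed the adjusted test, and fewer members than genes in general had a small unadjusted p: 34 passed the filter, 0 reached an adjusted p under 0.05 with edgeR (background 0% of 14892 genes, with a smallest adjusted p of 0.0650) and 2 of 34 (5.88%) had an unadjusted p under 0.05, against 32% of all genes. With DESeq2, 0 of the 23 members that received an adjusted p were called, against 20.4% of genes. In 0 of 34 members were the NT and shFos values apart, against 17.5% of genes. Members with few reads had wide errors (SE 0.50 for *Cd27* against 0.10 for *Tnfrsf1a*). These shares were not compared with those of genes at the same level. The members' median log2 fold change was −0.18, with 11 above 0 and 23 below, while the median over all genes was 0.00.

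**Figure D2:**
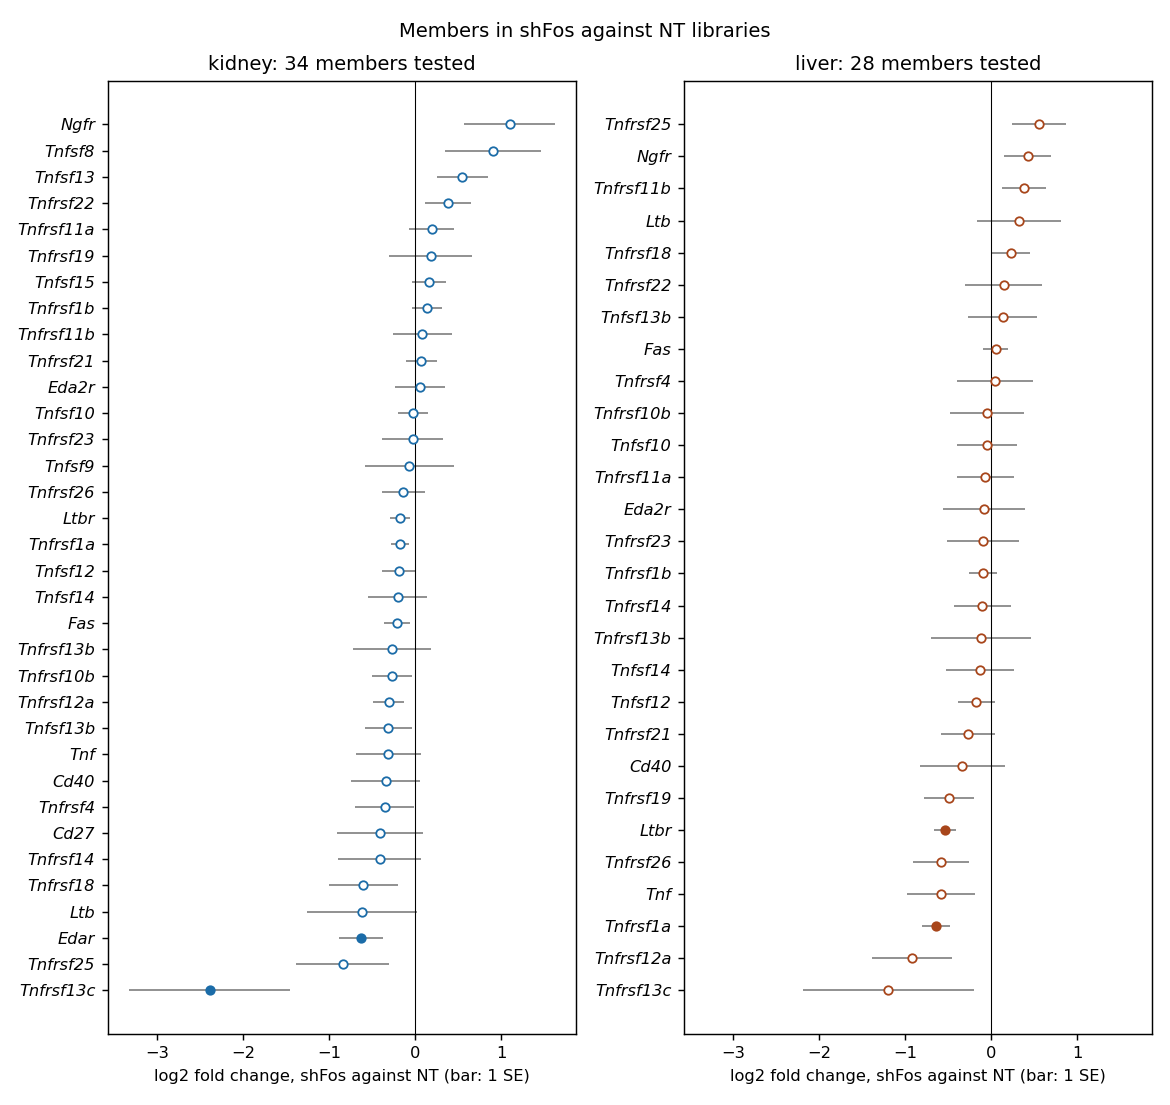
Log2 fold change of each tested member in shFos against NT libraries, in kidney (left, 34 members) and liver (right, 28 members), with bars of 1 SE; filled points have an unadjusted p under 0.05. Filled points are *Edar* and *Tnfrsf13c* in kidney and *Ltbr* and *Tnfrsf1a* in liver, all below 0, and no point in either panel had an adjusted p under 0.05.

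Of the ligands in kidney, *Tnf* was at 1.40, 1.59, 0.972 and 0.467 CPM in NT and 1.03, 1.01, 0.800 and 0.758 CPM in shFos. The shFos values lay inside the NT range (log2 fold change −0.31, SE 0.38, adjusted p = 0.594). The study displayed *Tnf*, *Ltb* and *Tnfrsf1b* among inflammatory genes it chose on these kidneys, so that their values are not independent evidence. *Ltb* was at 7.26, 5.48, 7.27 and 0.420 CPM in NT and 2.29, 3.96, 4.65 and 2.55 CPM in shFos, that is lower in shFos than in 3 of the NT kidneys and higher than in replicate 4 (log2 fold change −0.62, SE 0.64, adjusted p = 0.533). Without that replicate it was −1.0 (adjusted p = 0.0883). *Tnfsf10* was at 38.0 ± 10.1 CPM in NT and 37.7 ± 2.45 CPM in shFos (log2 fold change −0.03), and *Tnfsf12* at 15.0 ± 3.69 and 13.3 ± 1.90 CPM (−0.19, adjusted p = 0.513).

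*Lta* (lymphotoxin α, which closes the *Ltb*, *Tnf*, *Lta* cluster on chromosome 17) did not pass the filter but separated the groups. It had 23, 14, 8 and 13 reads in the NT kidneys and 2, 4, 5 and 4 reads in the shFos kidneys, which is 0.676 ± 0.291 and 0.188 ± 0.0675 CPM. All NT values lay above all shFos values (exact permutation p = 0.0286, two-sided, the smallest possible), and the ratio of NT to shFos over the summed counts, scaled for depth, was 3.63 (exact 95% interval 2.03 to 6.90, counting error only). The level was close to that of 3 reads per library, and with no filter the fit over all genes gave a log2 fold change of −1.81 (SE 0.47, adjusted p = 0.0728). *Lta* was at 0.181 ± 0.170 CPM in NT liver and 0.262 ± 0.265 CPM in shFos liver, where the groups overlapped (exact permutation p = 0.543).

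Among the ligands of lymphocytes, *Tnfsf8* (CD30 ligand) was at 0.396 ± 0.222 CPM in NT kidney and 0.754 ± 0.416 CPM in shFos kidney (log2 fold change 0.91, SE 0.56, adjusted p = 0.292). *Tnfsf13* (APRIL, a plasma cell survival factor) was at 0.791 ± 0.201 and 1.17 ± 0.294 CPM (0.55, SE 0.30, adjusted p = 0.235), and *Tnfsf13b* at 5.18 ± 2.01 and 4.22 ± 0.566 CPM (−0.31, adjusted p = 0.454). Of the members printed above for an AP-1 site, *Fas* stood at a log2 fold change of −0.21, *Tnfsf14* (LIGHT) at −0.20, *Tnfsf13b* at −0.31 and *Tnfsf13* at 0.55, while *Tnfrsf8* and *Tnfrsf9* had too few reads to be tested. None of them had an unadjusted p under 0.05 in kidney.

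For the T cell costimulatory receptors *Tnfrsf25* and *Tnfrsf18*, both on chromosome 4, 1 library decided the call. *Tnfrsf25* was at 2.56, 3.94, 2.45 and 1.63 CPM in NT kidney and at 3.50, 0.628, 0.95 and 0.867 CPM in shFos kidney. *Tnfrsf18* was at 3.72, 3.61, 3.66 and 2.94 CPM in NT kidney and at 4.67, 1.30, 2.0 and 1.25 CPM in shFos kidney. In both, shFos replicates 2, 3 and 4 lay below every NT kidney and shFos replicate 1 lay within or above them. With that library the log2 fold changes were −0.84 (SE 0.54, adjusted p = 0.305) and −0.61 (SE 0.40, adjusted p = 0.325), and without it −1.74 (adjusted p = 0.0105) and −1.24 (adjusted p = 0.00882). *Tnfrsf18* was named after its values were seen.

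Without shFos kidney replicate 1, 4 of 35 members (11.4%) were called, against 27.8% of all genes in the same fit. They were *Tnfrsf25*, *Tnfrsf18*, *Edar* (log2 fold change −0.82, adjusted p = 0.0404) and *Lta*, all lower in shFos. *Lta* had failed the filter with all 8 libraries and entered this fit through its NT values, so that its call is not counted as support; over the 34 members tested in both fits, 3 (8.82%) were called. With NT replicate 4 left out as well, 4 of 34 (11.8%) were called, against 34.8% of genes, namely *Tnfrsf25*, *Tnfrsf18*, *Ltb* (−0.88, adjusted p = 0.0218) and *Tnfrsf10b* (−0.61, adjusted p = 0.0353). With all 8 libraries, *Edar* was at 1.30, 1.12, 1.02 and 1.35 CPM in NT and 1.03, 0.628, 0.700 and 0.758 CPM in shFos, where again only shFos replicate 1 reached the NT range (log2 fold change −0.63, SE 0.25, adjusted p = 0.127 with edgeR). That library had the lowest podocyte sum of the shFos kidneys, 259 CPM against 203 to 293 CPM in NT, and its part in these differences was not tested. The summed T cell markers were at 15.5, 19.2, 26.6 and 15.4 CPM in the shFos kidneys. The part of T cells in these differences was not tested.

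**Figure D3:**
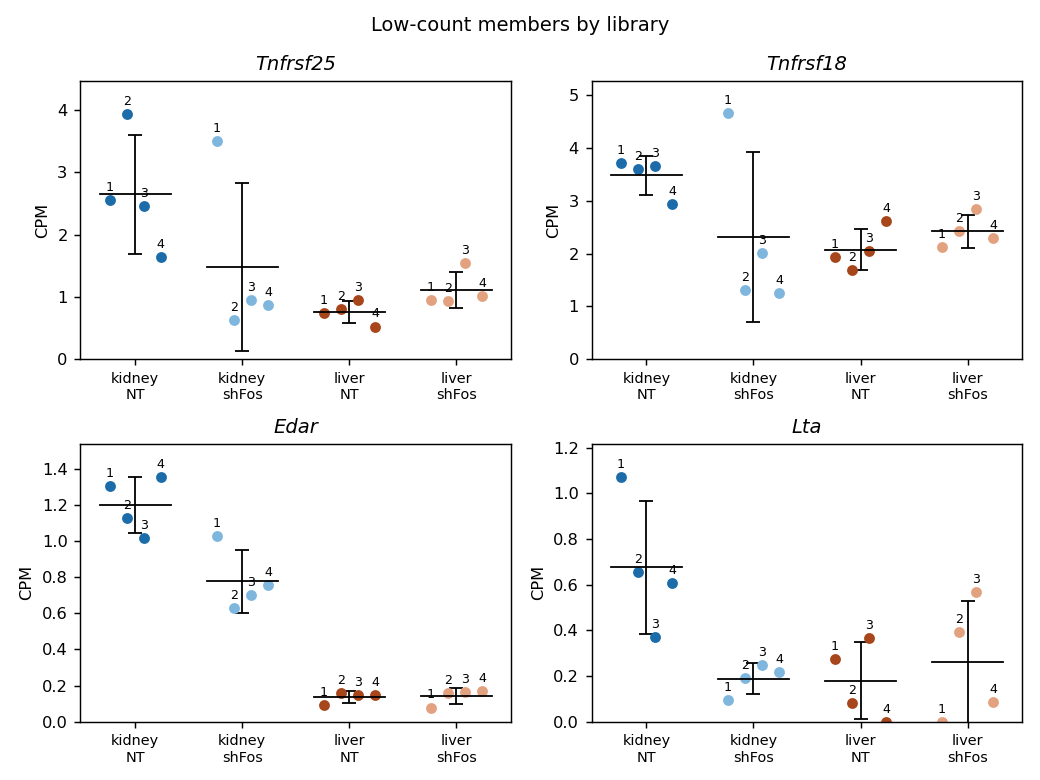
*Tnfrsf25*, *Tnfrsf18*, *Edar* and *Lta* in each of the 16 libraries, in CPM, with the replicate number above each point, the group mean as a line and 1 SD as a bar (n = 4). In shFos kidney, replicate 1 sits at 3.50 CPM for *Tnfrsf25* and 4.67 CPM for *Tnfrsf18*, above the other 3 shFos kidneys, and *Lta* is below every NT kidney in all 4.

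The B cell receptors *Tnfrsf13c* and *Tnfrsf13b* were highest in NT replicate 3. *Tnfrsf13c* (the BAFF receptor, on nearly all mature B cells) was at 1.86, 0.797, 12.7 and 0.747 CPM in NT kidney and at 0.373, 1.16, 0.900 and 0.650 CPM in shFos kidney. The log2 fold change of −2.39 (SE 0.94, adjusted p = 0.121 with edgeR) shrank to −0.57 (adjusted p = 0.471) without NT replicate 3. In liver the same replicate was again highest, at 6.60 CPM against 0.183 to 1.05 CPM in the other NT libraries and 0.424 to 1.41 CPM in shFos (log2 fold change −1.20, adjusted p = 0.784, and 0.84 without it). *Tnfrsf13b* was likewise highest in NT replicate 3 of both tissues, at 6.39 and 3.15 CPM. In kidney its log2 fold change was −0.27 (adjusted p = 0.713) with that library and 0.24 without it.

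Each of the 6 B cell markers exceeded 3 reads in at least 1 library of every group. Their summed level was 5.28 to 127 CPM in NT kidney against 8.73 to 18.9 CPM in shFos kidney, and 4.55 to 96.9 CPM in NT liver against 14.6 to 41.0 CPM in shFos liver. In kidney 6 of 6 markers had a log2 fold change below 0 (median −1.72) and none was called. The part of B cells in the values of *Tnfrsf13c*, *Tnfrsf13b* and *Ltb* was not tested. *Cd40*, the costimulatory receptor of B cells and macrophages, was at 3.58 ± 1.92 CPM in NT kidney and 2.85 ± 0.574 CPM in shFos kidney (log2 fold change −0.34, adjusted p = 0.585). Its highest NT kidney was replicate 2, at 6.00 CPM against 3.66 CPM in replicate 3. In NT liver replicate 3 was highest for *Cd40*, at 2.79 CPM against 2.66 CPM in replicate 2.

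**Figure D4:**
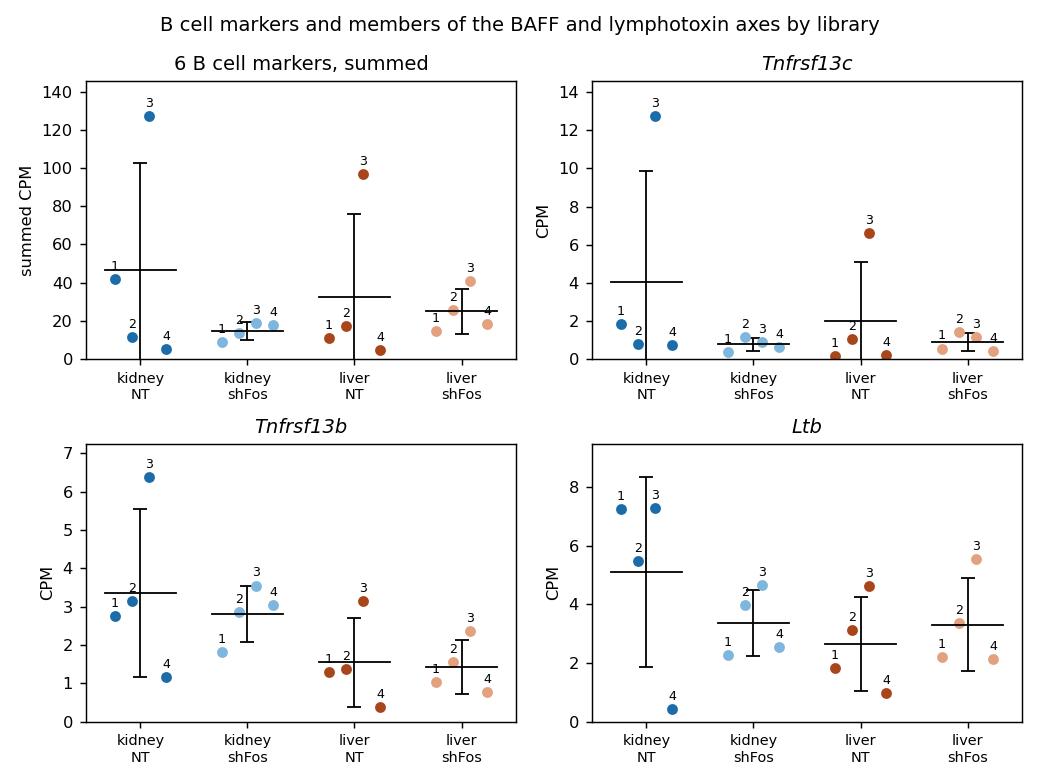
Summed level of 6 B cell markers, and the levels of *Tnfrsf13c*, *Tnfrsf13b* and *Ltb*, in each of the 16 libraries in CPM, with the replicate number above each point, the group mean as a line and 1 SD as a bar (n = 4). NT replicate 3 is the highest library for the markers and for both BAFF receptors in each tissue, and NT kidney replicate 4 is the lowest for *Ltb*, at 0.420 CPM.

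The abundant receptors in kidney did not pass the test, and their groups overlapped. *Tnfrsf1a* was at 76.0 ± 11.1 CPM in NT and 67.7 ± 2.94 CPM in shFos (log2 fold change −0.18, SE 0.10, adjusted p = 0.261). *Ltbr* was at 84.5 ± 14.6 and 75.3 ± 4.30 CPM (−0.17, adjusted p = 0.319, and 0.08 with a GC correction), *Tnfrsf21* at 143 ± 34.4 and 151 ± 26.6 CPM (0.07, adjusted p = 0.800), and *Tnfrsf1b* at 17.8 ± 3.58 and 19.8 ± 3.36 CPM (0.14, adjusted p = 0.611). *Fas* was at 9.31 ± 1.96 and 8.09 ± 0.526 CPM (−0.21, adjusted p = 0.361), and *Tnfrsf12a* (Fn14, the TWEAK receptor, induced in injured epithelium) at 20.9 ± 4.44 and 16.9 ± 3.60 CPM (−0.31, adjusted p = 0.266). In *Tnfrsf1a*, *Ltbr*, *Fas* and *Tnfrsf12a* the highest kidney was NT replicate 4.

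*Ngfr* had the largest positive log2 fold change of the kidney members, at 1.44, 3.14, 1.85 and 0.467 CPM in NT and 4.29, 1.64, 5.10 and 3.90 CPM in shFos. Only shFos replicate 2 fell inside the NT range (1.10, SE 0.53, adjusted p = 0.185 with edgeR). *Tnfrsf10b* was at 4.26 ± 0.854 and 3.57 ± 0.955 CPM (−0.27, adjusted p = 0.448). *Tnfrsf11a* (0.19, adjusted p = 0.635), *Tnfrsf11b* (0.08, 0.886) and *Eda2r* (0.06, 0.911), a p53 target that binds EDA-A2, had log2 fold changes within 1 SE of 0.

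Downstream of the receptors, the same list of 62 pathway genes was tested in the same kidney fit. Of the 62, the unadjusted p was under 0.05 for 29 (46.8%, of which 10 were above and 19 below NT), against the 32% of all genes given above, and 0 were called at the adjusted threshold with edgeR. DESeq2 called 18 of the 60 with an adjusted p (30%), against 20.4% of all genes. The smallest p-values were those of *Tab1* (a TAK1-binding adaptor, log2 fold change −0.57, SE 0.11, adjusted p = 0.0650), *Rhbdf1* (iRhom1, a cofactor of the TNF sheddase, −0.69, SE 0.15, adjusted p = 0.0650) and *Chuk* (the IKKα kinase, 0.48, SE 0.11, adjusted p = 0.0650). DESeq2 called these 3, at adjusted p = 0.00183, 0.00228 and 0.00216. At an unadjusted p under 0.05, the 10 above NT were 16.1% of the list (17.1% of all genes) and the 19 below were 30.6% (14.9% of all genes). By group, those above and below NT at that threshold were 0 and 3 of 9 NF-κB subunits and inhibitors, 1 and 5 of 12 inhibitors of apoptosis and ubiquitin editors, and 0 and 2 of 7 death domain adaptors. They were 1 and 2 of 7 TRAF adaptors, 3 and 3 of 13 kinases, 2 and 1 of 6 caspases and BH3 proteins, 3 and 2 of 5 sheddases and their inhibitors, and 0 and 1 of 3 other superfamily members. In 1 fit of all 16 libraries 5 of 62 (8.06%) were called, against 6.4% of genes.

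In liver, 28 members passed the filter, and the 2 that separated the groups were *Ltbr* and *Tnfrsf1a*. At the adjusted threshold 0 of 28 were called with edgeR (background 0% of 13144 genes) and 1 of the 17 with an adjusted p was called with DESeq2, against 0.315% of genes. The groups were apart in 2 of 28 members (7.14%), against 4.52% of genes, and the same 2 were those with an unadjusted p under 0.05 (7.14%, against 6.82%). The median log2 fold change was −0.10, with 9 above 0 and 19 below, and the median over all genes was −0.01.

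*Ltbr* was at 155, 152, 158 and 199.8 CPM in NT liver and at 97.9, 121, 109 and 129.8 CPM in shFos liver. Every shFos value lay below every NT value, and the group means of 166 ± 22.6 and 114 ± 13.8 CPM stood in a ratio of 0.689 (exact permutation p = 0.0286, two-sided, the smallest possible). The log2 fold change was −0.54 (SE 0.13, adjusted p = 0.685 with edgeR and 0.0417 with DESeq2). Over the 18 alternatives its adjusted p ran from 0.0417 to 0.956, with DESeq2 the only one under 0.05.

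*Tnfrsf1a* was at 159, 174, 149 and 248 CPM in NT liver and at 116, 126, 109.7 and 116 CPM in shFos liver. Here too every shFos value lay below every NT value, and the means of 183 ± 44.7 and 117 ± 6.86 CPM stood in a ratio of 0.640 (exact permutation p = 0.0286). The log2 fold change was −0.65 (SE 0.16, adjusted p = 0.685 with edgeR and 0.0553 with DESeq2). NT replicate 4, with its low hepatocyte and high neutrophil sums, was the highest library for both genes. Without it the log2 fold changes were −0.46 (*Ltbr*) and −0.48 (*Tnfrsf1a*), each with an adjusted p of 0.573, and without NT replicates 3 and 4 they were −0.43 and −0.52. Macrophage and Kupffer cell markers, all 8 above 3 reads, summed to 358 to 1984 CPM in NT liver and 451 to 855 CPM in shFos liver, and 8 of 8 had a log2 fold change below 0 (median −0.68). Neutrophil markers summed to 27.3 to 149.5 CPM and 12.7 to 50.9 CPM, and 4 of the 4 tested were below 0 (median −1.51). None of these markers was called, their sums overlapped between the groups, and their part in the values of *Ltbr* and *Tnfrsf1a* was not tested.

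**Figure D5:**
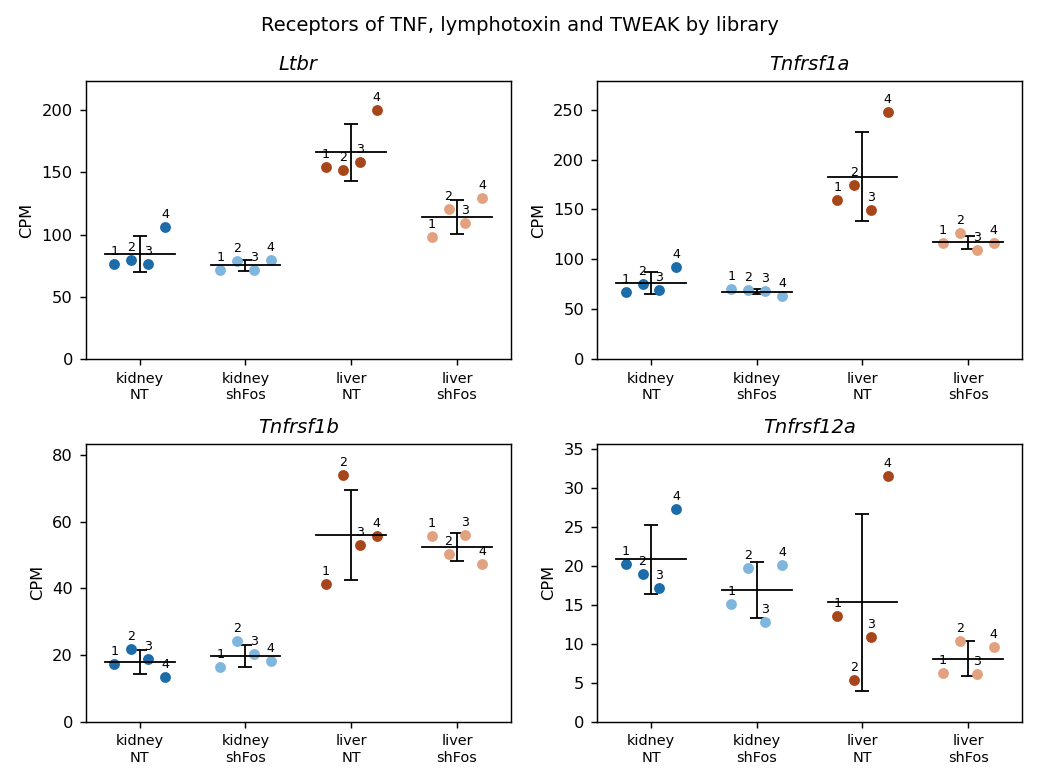
*Ltbr*, *Tnfrsf1a*, *Tnfrsf1b* and *Tnfrsf12a* in each of the 16 libraries, in CPM, with the replicate number above each point, the group mean as a line and 1 SD as a bar (n = 4). In liver, *Ltbr* lies at 152 to 199.8 CPM in NT and 97.9 to 129.8 CPM in shFos, while the kidney groups overlap for every gene shown.

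*Tnfrsf1b*, the other TNF receptor, was at 41.3, 74.0, 53.0 and 55.7 CPM in NT liver and 55.7, 50.3, 56.0 and 47.3 CPM in shFos liver, with all shFos values inside the NT range (log2 fold change −0.10, SE 0.17, adjusted p = 0.898). *Tnfrsf12a* was at 13.6, 5.39, 10.9 and 31.6 CPM in NT and 6.22, 10.4, 6.18 and 9.59 CPM in shFos. Its log2 fold change of −0.92 (SE 0.47, adjusted p = 0.727) came to −0.31 without NT replicate 4. *Fas*, at 33 ± 6.64 CPM in NT and 34.3 ± 1.16 CPM in shFos had overlapping groups (log2 fold change 0.05, SE 0.14, adjusted p = 0.945).

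Of the ligands in liver, *Tnf* was at 0.642, 1.61, 2.27 and 2.09 CPM in NT and 0.945, 1.57, 0.895 and 1.02 CPM in shFos. The groups overlapped through NT replicate 1, the lowest of all (log2 fold change −0.59, SE 0.39, adjusted p = 0.750). *Tnf* and *Tnfrsf21* were likewise chosen by the study on these livers, so that their values are not independent evidence. *Tnfrsf21* was at 14 ± 6.16 and 11.6 ± 3.15 CPM (−0.27, adjusted p = 0.833), *Tnfsf10* at 12.1 ± 7.10 and 11.7 ± 2.61 CPM (−0.05, adjusted p = 0.981) and *Ltb* at 2.64 ± 1.59 and 3.31 ± 1.59 CPM (0.32, adjusted p = 0.884).

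The rest of the receptors with the smallest p-values in liver, none with an unadjusted p under 0.05, were *Tnfrsf26* (grouped here with the decoy and orphan receptors, log2 fold change −0.59, adjusted p = 0.731), *Tnfrsf25* (0.55, 0.737), *Tnfrsf19* (−0.50, 0.739), *Ngfr* (0.42, 0.749) and *Tnfrsf11b* (0.38, 0.749). *Cd40* (−0.34, adjusted p = 0.874), *Tnfsf12* (−0.17, 0.851), *Tnfsf13b* (0.13, 0.947), *Tnfrsf13b* (−0.12, 0.972), *Eda2r* (−0.09, 0.975), *Tnfrsf11a* (−0.07, 0.971) and *Tnfrsf10b* (−0.05, 0.984) had smaller log2 fold changes. In liver, the unadjusted p was under 0.05 for 5 of 61 pathway genes (8.20%, 2 above and 3 below NT), against 6.82% of all genes. With edgeR and with DESeq2, 0 of the pathway genes were called, against 0% and 0.315% of all genes. The smallest p-values were those of *Timp3* (an inhibitor of the TNF sheddase, log2 fold change 0.57, SE 0.13, adjusted p = 0.685), *Adam10* (a sheddase, −0.40, SE 0.11, adjusted p = 0.702) and *Relt* (a TNF receptor relative, −1.15, SE 0.47, adjusted p = 0.713).

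Whether the knockdown acted differently in the tissues was tested with the interaction over all 16 libraries, coded as the kidney log2 fold change minus that of liver. With edgeR 0 of 34 members passed (background 0% of 15421 genes), with DESeq2 0 of 10 (background 2.96%), and 1 of 34 (2.94%) had an unadjusted p under 0.05, against 16.1% of genes. That member was *Tnfrsf1a* (interaction 0.45, SE 0.20, adjusted p = 0.285 with edgeR), followed by *Tnfrsf25* (−1.40, SE 0.68, adjusted p = 0.329) and *Ltbr* (0.35, SE 0.18, adjusted p = 0.359). The separation of *Ltbr* and *Tnfrsf1a* in liver was therefore not shown to differ from their values in kidney. Without shFos kidney replicate 1, *Tnfrsf25* (−2.23, adjusted p = 0.0133) and *Tnfrsf18* (−1.40, adjusted p = 0.0185) passed, 2 of 36 members (5.56%), against 7.88% of genes in that fit. For both, the kidney value was negative and the liver value positive (0.55 and 0.22). Of the pathway genes, 0 of 62 passed and 10 (16.1%) had an unadjusted p under 0.05, against 16.1% of genes.

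Among the other members, *Cd70* and *Tnfsf18* had at most 2 reads in any library. *Fasl* was at 0.362 ± 0.255 CPM in NT kidney, 0.362 ± 0.304 CPM in shFos kidney, 0.483 ± 0.241 CPM in NT liver and 0.446 ± 0.161 CPM in shFos liver, 1 to 15 reads per library, with overlap in each tissue (in kidney, exact permutation p = 0.971). *Tnfsf11* (RANKL) had at most 12 reads, at 0.116 ± 0.117 and 0.259 ± 0.237 CPM in kidney and 0.0229 ± 0.0458 and 0.183 ± 0.155 CPM in liver (exact permutation p = 0.371 and 0.0857). The remaining members did not pass the test in any comparison in which they were tested. *Tnfrsf4* (OX40, of activated T cells) and *Cd27* (of T cells and memory B cells) had overlapping groups in both tissues, as had *Tnfrsf22* and *Tnfrsf23*, the decoy TRAIL receptors of the mouse. *Cd40lg*, *Tnfsf4*, *Tnfrsf17*, *Tnfrsf8* and *Tnfrsf9*, ligands and receptors of lymphocytes, had at most 12, 12, 10, 15 and 24 reads in a library, and their NT and shFos values overlapped in both tissues.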

How the data were processed

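The deposited files hold 1 table of raw read counts per library, which the authors made, per the methods and processing notes, with Trimmomatic 0.39, HISAT2 2.2.1 on mm10 and HTSeq 0.12.4 without use of strand. Reads on no gene (13.4 to 26.7%) and ambiguous reads (1.84 to 2.64%) were left out of library sizes. The genes and lists were chosen with earlier results of these data known.

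The counts entered the quasi-likelihood test of edgeR 4.0.16 (R 4.3.3), after filterByExpr and TMM scaling and with robust dispersions, separately for each tissue, for NT kidney against NT liver and for the interaction. P-values were adjusted over all genes by Benjamini-Hochberg, and a call was an adjusted p under 0.05. DESeq2 1.42.0 was the alternative, as the study's methods name it. Other alternatives were upper-quartile scaling, other filters, GC and length corrections, a replicate block, 1 fit of 16 libraries and leaving out libraries. An exact two-sided permutation test over 70 assignments was used for single genes. Intervals and the level of 3 reads cover counting error only. The script was tested on simulated data.

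Genes named with values were the 8 members with the smallest p per tissue, 3 in the interaction, up to 8 per direction between tissues, 20 fixed members and the 3 pathway genes with the smallest p per tissue. *Tnfrsf18*, and *Ltbr* and *Tnfsf14* in kidney, were named after their values were seen. Positions and exon lengths came from GENCODE M21 for 44 of 44 members. Deviations of same-numbered NT kidney and NT liver libraries had correlations of 0.116, 0.291, 0.326 and 0.309, in order of replicate. For replicate 1 the correlation with another number was higher (0.136), so that its pairing is uncertain, while the other replicates each matched their own number best. Between shFos kidney and shFos liver, replicates 1, 2 and 4 matched their own number best (0.0796, 0.147 and 0.107). Replicate 3 of the shFos group did not (0.0386 against 0.0663). The number entered only the replicate block, and the main fits, that of the interaction included, took the libraries as independent. No 2 libraries of a group agreed within sampling noise. Figures were drawn with matplotlib 3.10.9.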

Additional observations from a re-analysis of the deposited data

Results flagged for a closer look

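In 124 groups of 4 libraries (tested members by group), 12 held a value that stood apart from the other 3 by Dixon's test at 5%, against 6.2 expected by chance. NT replicate 4 gave 5 of them. In kidney it had *Fas* at 12.2 CPM (others 8.01 to 8.53), *Ltbr* at 106 CPM (76.2 to 79.3), *Tnfrsf18* at 2.94 CPM (3.61 to 3.72) and *Tnfrsf22* at 1.91 CPM (3.94 to 4.35). In liver it had *Ltbr* at 199.8 CPM (152 to 158).

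NT replicate 3 had *Tnfrsf13c* at 12.7 CPM in kidney (others 0.747 to 1.86) and 6.60 CPM in liver (0.183 to 1.05), with the highest summed B cell markers in each tissue. In shFos kidney, replicate 1 had *Tnfrsf25* at 3.50 CPM (0.628 to 0.95) and *Tnfrsf11a* at 5.41 CPM (2.87 to 3.25), and replicate 3 had *Tnfsf12* at 10.5 CPM (14 to 14.5). In liver, NT replicate 2 had *Tnfsf10* at 22.7 CPM (7.98 to 9.24) and shFos replicate 3 had *Tnfrsf25* at 1.55 CPM (0.940 to 1.02).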

How the results depend on the processing

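The direction of the tissue differences was kept in all alternatives run for the 17 called members, except *Ltbr* (0.0557) and *Tnfrsf18* (-0.0915), given above. The cause of the turns in direction listed next was not tested. In kidney, DESeq2 called 18 pathway genes, against 20.4% of all genes, and 1 fit of all 16 libraries called 5, against 6.4%. Leaving out NT replicate 4 and shFos replicate 1 together called 4 members and 35 pathway genes, against 34.8% of all genes. That setting, the others that leave out 2 libraries, and library-size scaling were chosen after seeing the data. Members with an unadjusted p under 0.05 in kidney (2) numbered 1 with DESeq2 (32.4% of all genes) and 1 with the replicate block (25.6%). They numbered 7 without NT replicates 3 and 4 (22.4%) and 9 without NT replicate 4 and shFos replicate 1 (45.9%). In liver DESeq2 called 1 member (0.315% of all genes), and 4 had an unadjusted p under 0.05 without NT replicates 3 and 4 (7.32% of all genes). Between tissues, library-size scaling called 26 members, against 82.7% of all genes. In the interaction DESeq2 called 1 pathway gene, against 2.96% of all genes. The members with an unadjusted p under 0.05 (1) numbered 2 with DESeq2 (17.6% of all genes), no filter (13%) or a mean of at least 10 counts (17.6%). They numbered 0 with upper-quartile scaling (16%) and 3 with the replicate block (12%).

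Kidney log2 fold changes turned for *Tnfrsf1b* (-0.0247) and *Tnfrsf11a* (-0.000208) without NT replicates 3 and 4, for *Tnfrsf11a* (-0.22) without NT replicate 4 and shFos replicate 1, for *Tnfsf10* (0.0148) with the replicate block, for *Eda2r* (-0.00612) with upper-quartile scaling, for *Ltbr* (0.0802), *Tnfsf12* (0.0221), *Tnfrsf11b* (-0.0838) and *Eda2r* (-0.145) with a GC correction, and with GC and length for *Ltbr* (0.106), *Tnfsf12* (0.0812), *Tnfrsf11b* (-0.0697) and *Eda2r* (-0.155). In liver they turned without NT replicates 3 and 4 for *Tnfrsf21* (0.25), *Fas* (-0.0441), *Tnfrsf10b* (0.166), *Tnfrsf13b* (0.100), *Tnfrsf13c* (0.47) and *Tnfrsf11a* (0.51), and with the replicate block for *Tnfsf10* (0.0664), *Tnfrsf13b* (0.0248), *Tnfrsf11a* (0.00241) and *Eda2r* (0.0176). Between tissues they turned with library-size scaling for *Ltbr* (0.0557), *Tnf* (0.42) and *Eda2r* (0.48), without NT replicates 3 and 4 of both tissues for *Tnf* (0.36), and in the shFos libraries for *Ltb* (-0.00671) and *Tnfrsf13c* (-0.23). In the interaction they turned for *Cd40* with no filter (0.00994), a mean of 10 counts (0.0122) and the block (0.0548), for *Tnfsf10* with upper-quartile scaling (-0.0317) and the block (-0.0601), and for *Eda2r* with the block (-0.0289).

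Leaving out 1 library at a time gave 0 to 4 called members and 0 to 25 called pathway genes in kidney. Both were highest without shFos replicate 1, where 27.8% of all genes were called. In kidney 1 to 7 members had an unadjusted p under 0.05, against 21.7 to 40.8% of all genes. In liver 2 to 4 members had such a p, against 4.17 to 9.34% of genes. In the interaction 0 to 4 members had one, against 12.6 to 23.7% of genes. There, 0 to 2 members and 0 to 3 pathway genes were called, against at most 7.88% of genes. Kidney log2 fold changes that turned ranged from -0.0633 to 0.24 (*Tnfrsf21*), -0.62 to 0.0300 (*Cd40*), -0.17 to 0.14 (*Tnfsf10*), -0.55 to 0.24 (*Tnfrsf13b*), -0.0887 to 0.31 (*Tnfrsf11a*), -0.12 to 0.25 (*Tnfrsf11b*) and -0.15 to 0.21 (*Eda2r*). Those in liver ranged from -0.0647 to 0.74 (*Ltb*), -0.22 to 0.0574 (*Tnfrsf1b*), -0.49 to 0.0514 (*Tnfrsf21*), -0.0534 to 0.16 (*Fas*), -0.21 to 0.44 (*Tnfsf10*), -0.38 to 0.32 (*Tnfrsf10b*), -0.0995 to 0.34 (*Tnfsf13b*), -0.49 to 0.51 (*Tnfrsf13b*), -1.60 to 0.84 (*Tnfrsf13c*), -0.26 to 0.26 (*Tnfrsf11a*) and -0.42 to 0.15 (*Eda2r*). Between tissues *Tnfrsf13c* ranged from -0.85 to 2.99. In the interaction the ranges were -0.28 to 0.40 (*Cd40*), -0.49 to 0.23 (*Tnfsf10*), -0.61 to 0.0885 (*Tnfrsf10b*), -0.20 to 0.16 (*Tnfsf12*), -0.0323 to 0.88 (*Tnfrsf12a*), -0.79 to 0.38 (*Tnfrsf13b*), -3.24 to 0.66 (*Tnfrsf13c*), -0.0681 to 0.44 (*Tnfrsf11a*) and -0.12 to 0.44 (*Eda2r*).

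Same-numbered NT and shFos libraries of a tissue did not deviate together, so there the block rests on a shared number only. Members with a few reads per library, such as *Lta*, are limited by counting error.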
